A study of Drosophila melanogaster with 4 samples.

Results

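Intervals named for 6 Drosophila melanogaster genes, odd, drm, sob, slp1, slp2 and h, were examined for binding of Cmi by ChIP-seq on whole embryos. They are called pair-rule loci below, although drm and sob are relatives of odd with roles in the gut and leg. Peaks were assigned to a locus when their midpoint fell in 1 of 3 intervals of FlyBase release 5, named for drm, sob and odd (2L, 3560000 to 3650000), for slp1 and slp2 (2L, 3810000 to 3850000) and for h (3L, 8650000 to 8690000). Of the 3110 peaks in the deposited list, 3 lay in these intervals. There were 2 in the interval of drm, sob and odd, 0 in that of slp1 and slp2, and 1 in that of h.

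The experiment comprised 2 libraries immunoprecipitated with an affinity-purified rabbit polyclonal antibody raised against the full-length Cmi protein, and 2 libraries of input DNA. All 4 came from embryos of the strain Exd-GFP-13T, collected over 0 to 8 h, of genotype w; PBac{y[+]-attP-3B}VK00033 and unknown sex. The embryos carried a genomic transgene of extradenticle in which GFP replaced the stop codon, so input and ChIP share this background. The protocol field of the same labels describes a collection of older embryos from other flies, and the stage and strain fields were followed here. A single peak list with no columns per library represents the experiment, so library depth is unknown and no value below has a replicate error. Whole embryos were used, and a site bound in few cells cannot be told apart from a site bound weakly in many.

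Segmentation in the fly embryo proceeds from broad gap domains to the striped expression of pair-rule genes and then to segment polarity genes. The protein of odd (odd skipped) is a zinc finger repressor, and drm (drumstick) and sob (sister of odd and bowl) encode related zinc finger proteins of the same family, with roles in the gut and leg. Both slp1 and slp2 (sloppy paired) encode forkhead transcription factors, and h (hairy) encodes a basic helix-loop-helix repressor that recruits the corepressor Groucho. Pair-rule genes such as h are known for large, modular regulatory regions in which separate enhancers drive separate stripes. Cmi (CG5591, listed as Lpt in the gene table) belongs to the Trithorax-related (Trr) complex, a histone H3 methyltransferase that acts at enhancers.

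All 6 genes were found in a RefSeq gene table of release 6, where h has the symbol hry. In this table slp1 and slp2 are neighbours with no protein-coding gene between them. Likewise sob and odd are neighbours, while 1 protein-coding gene, CG43815, lies between drm and sob. The protein-coding gene that follows odd is Ugt36A1, slp1 follows CG3407, slp2 is followed by TTLL4B, and h lies between Arr2 and SrpRbeta. That table is of another build than the peaks. Taken at face value, its positions put drm wholly before the start of the interval named for it and the other genes within theirs. Whether this holds on release 5 was not checked, so the interval's 2 peaks may not cover drm, and no peak was assigned to a gene.

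The 3 intervals held 3 Cmi peaks, and none scored above the upper quartile of its arm, a level that most peaks do not exceed. Over the 170 kb of the intervals, peaks covered 2001 bases, or 1.18%. Stretches of the intervals' lengths slid along the arms had mean covered shares of 1.16% on 2L and 1.30% on 3L. The 3 peaks compare with 3.44 expected from the mean densities of the arms, which are 1.96 peaks per 100 kb on 2L (429 peaks) and 2.22 on 3L (540 peaks). The number of peaks in these intervals was close to the arm averages, and the arms themselves are occupied unevenly.

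**Figure D1:**
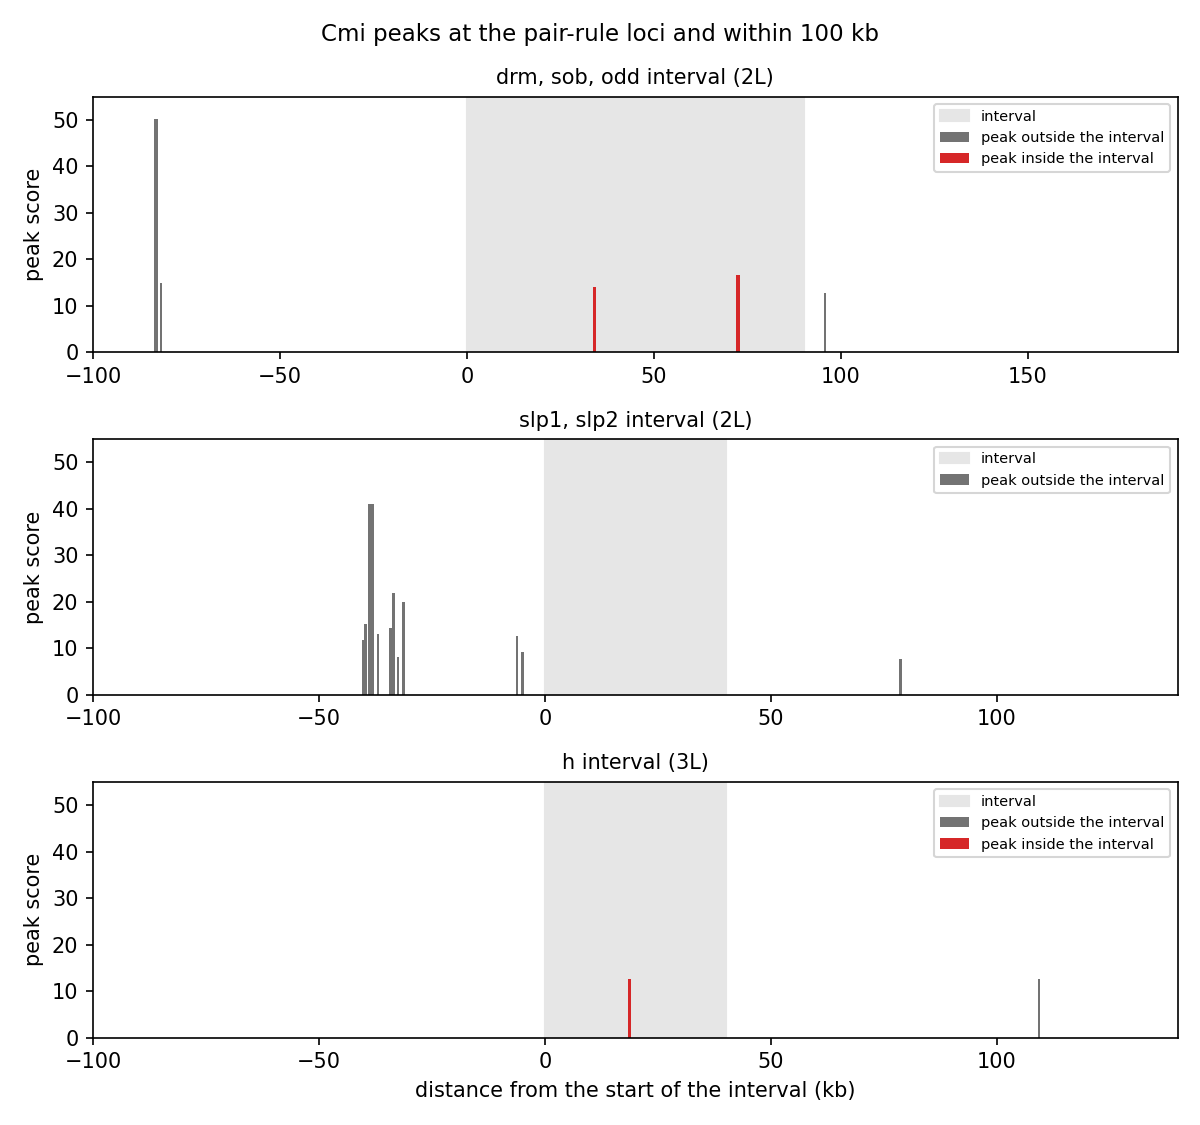
Cmi peaks in the 3 pair-rule intervals (grey shading) and within 100 kb on either side. The x axis is the distance from the start of the interval in kb and the height of each bar is the deposited score of the peak. Bars are drawn at least 0.6 kb wide so that narrow peaks can be seen. Peaks inside an interval (red) have scores from 12.71 to 16.66, and the interval of slp1 and slp2 is empty, with 11 peaks around it.

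The 2 peaks in the interval of drm, sob and odd were separate from each other. The first, at 2L 3593923 to 3594224, was 302 bp wide with a score of 13.99 and lay 34.1 kb inside the interval. The second, at 2L 3631844 to 3633100, was 1257 bp wide with a score of 16.66 and lay 17.5 kb before the interval's end. Their midpoints were 38.4 kb apart, so they did not form a group.

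The score of a peak is read as the negative log10 of a Poisson p-value, since 77 of the 84 scores shared by 5 or more peaks lie within 0.0061 of the values that whole read heights give against a background of 31.1 reads. Over all peaks, recurrent or not, 69.0% on 2L and 76.1% on 3L lay this close to such a value, among them the 3 peaks of the intervals. On this reading the first peak had a height of 83 reads, 2.67 times the background, and the second 89 reads, 2.86 times. Both scores were common, with 52 and 36 peaks of the list at the same value.

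In strength, both peaks of this interval were ordinary for 2L, whose median score was 13.56 (quartiles 9.94 and 21.4). Of the peaks on 2L, 46.6% scored higher than the first and 36.8% higher than the second. In width they differed more. The first was narrower than the 2L median of 418 bp (quartiles 279 and 706 bp), with 69.7% of the 2L peaks wider. The second was among the wide peaks of the arm, with 32 of 429 wider (7.46%). It was also wide for its score: among the 387 peaks of the major arms with scores within 2 of its own, the median width was 509 bp and 11 (2.84%) were at least as wide. This peak was singled out after its width had been seen.

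Sliding stretches of 90 kb along 2L, moved in steps of 1 kb, gave the setting for this interval. At least 2 peaks were found in 41.2% of the 21788 stretches, and no peak in 40.2%. The mean was 1.74 peaks and the fullest stretch held 15. The stretches took in the longest gap of 2L, 640 kb, which adds empty stretches. Peaks covered 1.73% of the interval, a share reached in 21.9% of the stretches. A peak scoring at least 16.66 was found in 36.8% of them. These shares are ranks without a test, because the stretches overlap and the loci were chosen with earlier results of these data known.

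**Figure D2:**
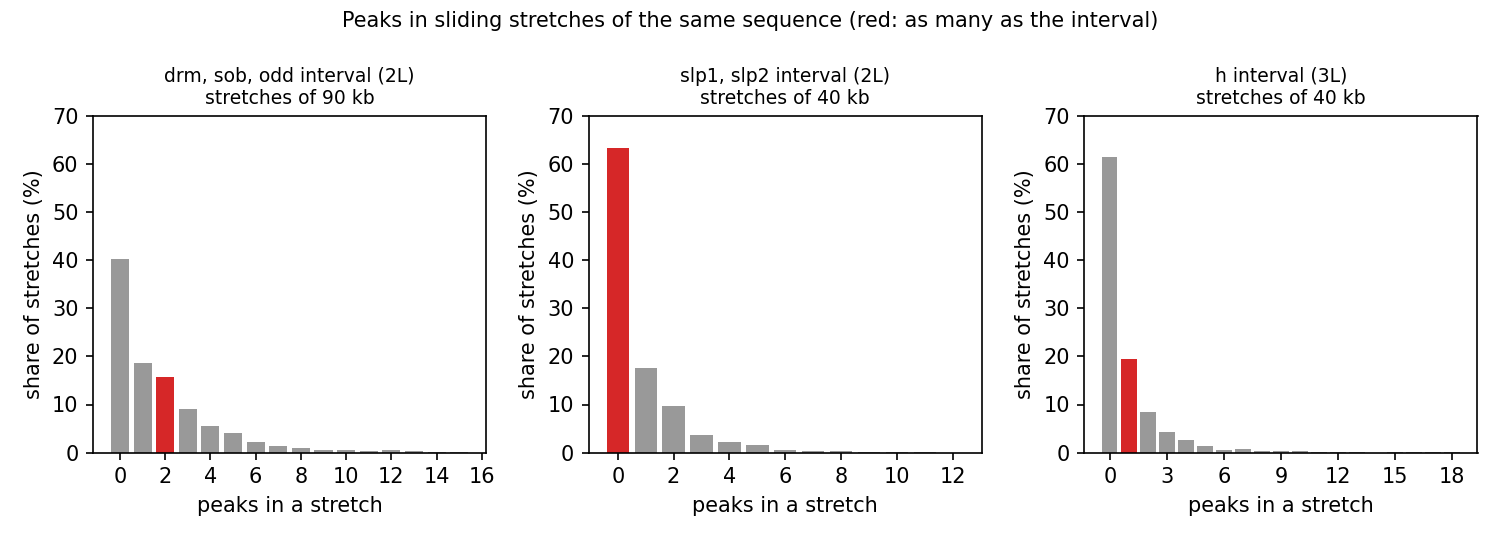
Number of Cmi peaks in sliding stretches of the same length and sequence as each interval. The x axis is the number of peaks in a stretch, the y axis the share of stretches in percent, and the red bar marks the count found in the interval itself. The red bar stands at 2 peaks for drm, sob and odd (15.8% of stretches), at 0 for slp1 and slp2 (63.4%) and at 1 for h (19.5%).

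The surroundings of this interval were nearly empty on the side of lower coordinates. No peak lay in the 115 kb from 3478568 to 3593922, which spans the first 37.7% of the interval. A start of the interval placed anywhere in that gap would give the same 2 peaks. Gaps this long or longer numbered 67 of 428 on 2L (15.7%) and made up 66.7% of the arm's span between its first and last peak. Before the gap lay a pair of peaks, the stronger with a score of 50.16 at 3476284 to 3477295. On the other side a narrow peak of 243 bp with a score of 12.67 lay 5.66 kb beyond the interval's end, at 3655662 to 3655904. Extending the interval by 50 kb on each side added only this peak, and its 3 peaks were then reached or exceeded in 53.5% of stretches of that length.

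No Cmi peak was called in the interval of slp1 and slp2, and none overlapped its edges. An empty stretch of 40 kb is common on 2L, where 63.4% of 21838 such stretches held no peak. The longest gap of 2L, 640 kb, adds to this share. The empty interval lay within a gap of 83.2 kb, from 3805283 to 3888520. Of the 428 gaps on 2L, 85 were at least as long (19.9%), and these made up 74.8% of the arm's span. The list holds only called peaks, with scores of at least 6.09 on the major arms, so the empty interval does not show that Cmi was absent from slp1 and slp2.

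Peaks were plentiful just before this empty interval. A pair lay 4.72 kb before its start, with scores of 12.71 (375 bp, 3803659 to 3804033) and 9.19 (508 bp, 3804775 to 3805282). Farther before it, 31.1 kb from the start, ended a group of 8 peaks that ran from 3769553 to 3778925. These 8 peaks covered 44.0% of their stretch, with scores from 8.11 to 40.99 and widths from 255 to 1525 bp. When peaks with midpoints within 5 kb were chained, 2L held 267 groups and single peaks, and 2 of them had 8 or more members, this group included. After the interval the nearest peak lay 38.5 kb away, with a score of 7.78 and a width of 236 bp.

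The count in the interval of slp1 and slp2 depended on where the edges were set. With 10 kb added on each side the interval held 2 peaks, and 84.8% of stretches of that length held 2 or fewer. With 50 kb added it held 11 peaks, and 97.9% of such stretches held 11 or fewer. The widened interval ranked among the fuller stretches of its length on 2L. This width of 50 kb was unplanned, however, and was picked with the surrounding peaks already in view. It took in the group of 8, so the high rank depends on that choice of edges. No conclusion about the locus is drawn from it. Which genes the pair and the group of 8 belong to was not analysed here.

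The interval of h held 1 peak near its middle. It lay on 3L at 8668497 to 8668938, 18.7 kb from the start of the interval, and was 442 bp wide with a score of 12.71. On the same reading as above this is a height of 80 reads, 2.57 times the background, and 59 peaks of the list shared the score. The median score on 3L was 14.05 (quartiles 10.7 and 21.0), and 58.3% of its peaks scored higher. Its width was close to the 3L median of 448.5 bp.

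**Figure D3:**
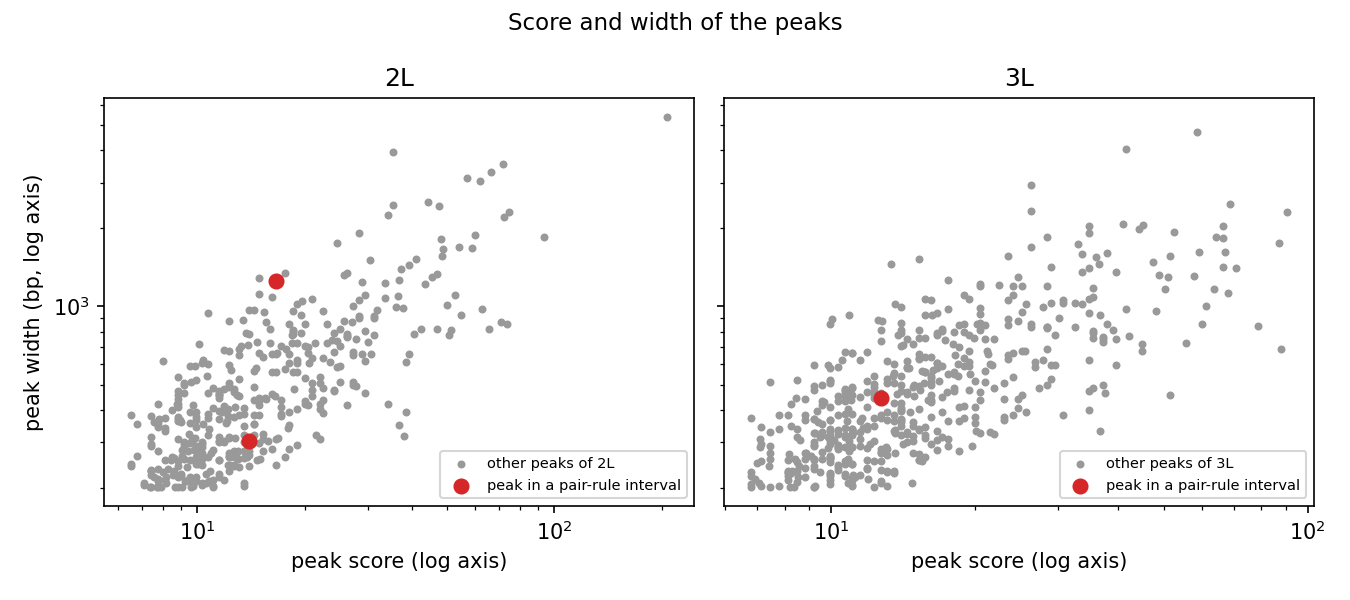
Score and width of the peaks on 2L and 3L, each point being 1 peak, with both axes logarithmic. The peaks of the pair-rule intervals (red) have scores from 12.71 to 16.66, and the peak of 1257 bp on 2L lies at the upper edge of the widths found at its score.

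At least 1 peak was found in 38.6% of the 24294 stretches of 40 kb on 3L, and none in 61.4%. The mean was 0.883 and the highest count 18. The stretches ran from the first to the last peak of 3L and took in its longest gap, 1516 kb, which adds empty stretches. The share of the h interval under the peak, 1.10%, was reached in 28.6% of the stretches. A peak scoring at least 12.71 was found in 29.0%.

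The peak at h was one of the more isolated peaks of 3L. The nearest other peak, at 8759211 to 8759491 with the same score of 12.71 and a width of 281 bp, lay 90.6 kb away, midpoint to midpoint. Only 23 of the 540 peaks on 3L (4.26%) were as far or farther from their nearest neighbour, and the median distance was 2.26 kb. On the other side no peak lay in the 129 kb from 8539809 to 8668496. Of the 539 gaps on 3L, 57 were this long or longer, and together they made up 56.0% of the arm's span. These include the gap of 1516 kb. With 50 kb added on each side the interval of h still held 1 peak, and 76.3% of stretches of that length held at least as many.

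**Figure D4:**
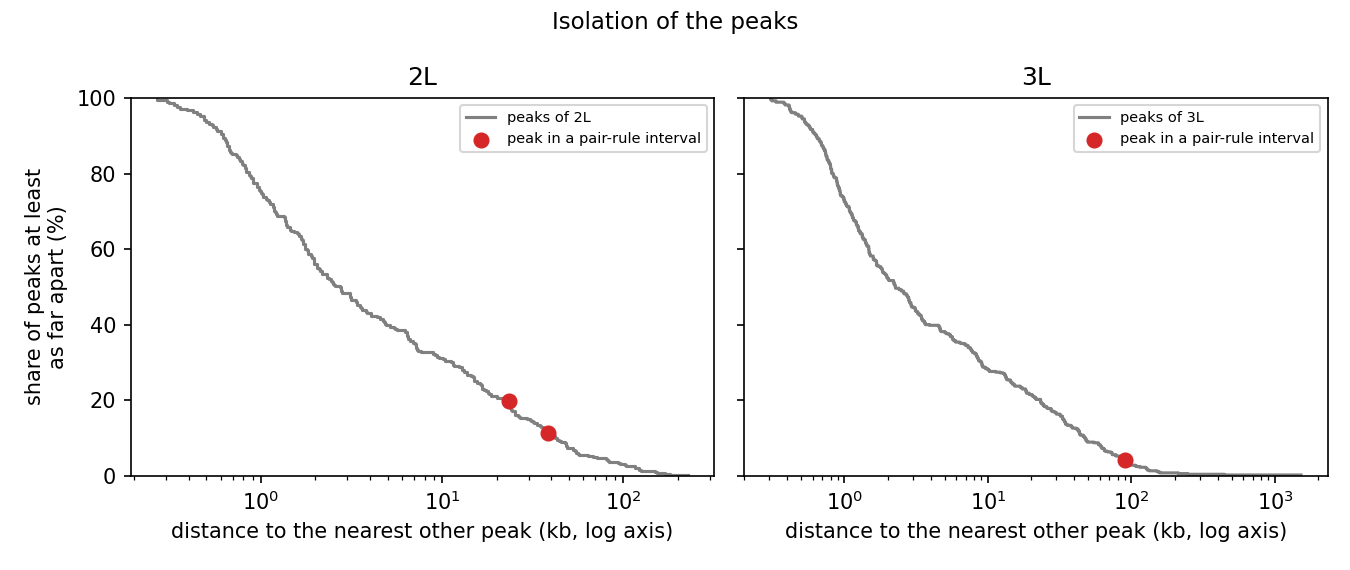
Distance from each peak to the nearest other peak, midpoint to midpoint, on 2L and 3L. The x axis is the distance in kb on a log scale and the y axis the share of peaks at least as far from their neighbour. The peaks of the pair-rule intervals (red) lie at 23.3 and 38.4 kb on 2L and at 90.6 kb on 3L, where 19.8%, 11.2% and 4.26% of the peaks of the arm are as isolated.

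The 3 peaks of the pair-rule loci all lay farther from their nearest neighbour than the median distance of their arm. On 2L the nearest neighbours lay at 38.4 kb for the first peak, which was the other peak of the interval, and at 23.3 kb for the second. The median on 2L was 2.72 kb, and 11.2% and 19.8% of its peaks were as isolated. None of the 3 had another peak within 5 kb. Single peaks by this measure made up 39.9% of the peaks on 2L and 38.0% on 3L. With only 3 peaks, a difference from the rest of the arms was not tested.

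The 3 peaks were close in height, and the score of each lay between the quartiles of its arm. Whether they were closer to each other than other peaks of the arms was not tested. The highest, 89 reads in the interval of drm, sob and odd, and the lowest, 80 reads at h, differed by 9 reads, less than the 13.0 reads that counting error alone gives for such a difference (SD, Poisson). This SD covers counting error only and assumes that the score stands for whole reads. Their order is therefore not resolved. In width they ranged from 302 to 1257 bp. Other pair-rule genes, such as eve, ftz, prd, run and opa, were not analysed here, because no annotation of release 5 was used.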

How the data were processed

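Chromatin of embryos was profiled by ChIP-seq with anti-Cmi (2 libraries) beside input DNA (2 libraries). The submitters' processing notes name BWA, MACS2, CASAVA (1.7.0.2, 1.7.0.3) and the build BDGP5, without roles. Thresholds and any pooling of replicates are not stated in the labels or the file. Per the file headers, the peaks lie on FlyBase release 5 and MACS called them. The authors' deposited score has no stated scale and is read as −log10 of an unadjusted Poisson p-value; the background was found by scanning 5 to 120 reads, where none more than 1 read from 31.1 matched more than 11 of the 84 recurrent scores.

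Peaks were counted by midpoint in Python 3.11.15 (numpy 2.4.6, pandas 2.3.3, scipy 1.17.1). Stretches of each interval's length slid in steps of 1 kb from the first to the last peak of the arm. Every peak of the intervals is printed, with the nearest outside. The scripts were tested on simulated data. The members, intervals and lists were chosen with earlier results of these data known. No test was made: the list has no replicates. Alternatives changed the placement, edges, score minimum, joining of peaks within 1 kb, step and span.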

Additional observations from a re-analysis of the deposited data

How the results depend on the processing

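Of 102 alternative values computed for the 3 intervals, 72 stayed within 1.5 times the reported count, covered share or score, or within the 95% Wilson interval of a share of stretches, with n taken as the number of stretches that do not overlap. Placement by any overlap, the step, stretches that do not overlap, the span, joining within 1 kb, all major arms as the comparison and a score tolerance of 0.015 moved none beyond these limits. Among the peaks above the median score of the list, the interval of drm, sob and odd kept 1 peak and that of h 0, and above the upper quartile both kept 0, so that 100% of stretches held as many. The share of empty stretches for slp1 and slp2 rose to 79.3% and 91.1% for these subsets, as fewer peaks were counted. Widening by 10 kb gave slp1 and slp2 2 peaks (1.47% covered), with 84.8% of stretches holding as few; narrowing by 5 kb gave 70.1%. Widening by 50 kb, chosen after seeing the data, gave 11 peaks. Here 97.9% of stretches held 11 or fewer, so that few held more. The share of stretches with as many peaks as at drm, sob and odd became 32.0% with 10 kb added and 53.5% with 50 kb. Only among stretches with a peak it became 68.9%, with 36.6% for coverage and 61.6% for the top score. For h, these shares were 100%, 74.2% and 75.1% among stretches with a peak. The 100% was fixed in advance, because the interval of h held 1 peak, though it counts among the values outside the limits. The shares for h were 49.6%, 38.7% and 38.8% with 10 kb added, and 31.7%, 22.8% and 23.3% with 5 kb removed. With 50 kb added 76.3% held as many peaks. No paired analysis was possible because no column of the list belongs to 1 library, which also barred leaving out a replicate. Library depth is unknown, which limits what an interval without a peak can show.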
